A study of Homo sapiens with 10 samples.

Results

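A549 cells, an established human lung adenocarcinoma cell line, were grown either as a 2D monolayer or as tumor spheroid (TS) cells, and 1 library of poly(A) RNA was sequenced from each culture. These 2 libraries were chosen by their labels, A549 2D and A549 CTC (sphere culture condition), from the 10 samples of the series. 2D-cultured cells were kept in RPMI medium with fetal bovine serum. TS cells were kept without serum on plates coated against attachment, in RPMI medium with B27 and the growth factors bFGF and EGF, and were passaged as spheres before sequencing. Medium, serum, attachment and cell density therefore changed together, and their parts in a difference cannot be told apart. Of the other 8 samples, 3 2D libraries and 1 TS library of H460 cells, another human lung cancer line, are set beside them. The comparison asks which genes A549 cells express differently once they live in suspension, as circulating tumor cells do.

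A549 cells derive from the distal lung, where alveolar epithelium makes surfactant and airway epithelium makes mucus. Secretory epithelium of the airway and gut shares mucins, trefoil factors and anti-microbial proteins, and it depends on transcription factors such as SPDEF and FOXA1. Cells attached to a stiff surface spread, pull on actin fibers and keep YAP in the nucleus, whereas rounded cells do less of each. These are background facts and were not measured here.

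The reads counted on genes numbered 64454873 in the 2D library and 69853644 in the TS library. All levels are FPKM, which is corrected for transcript length and library size, and all differences are TS minus 2D on the log2(FPKM + 1) scale, where 1 stands for a doubling and the change of low genes is understated. With 1 library per culture there is no replicate check and no test, so "higher" and "lower" describe these 2 libraries. Counting error was small for genes with many reads, but it covers neither culture nor library preparation. Both libraries carried the marks of the same cell line. Of 99 genes that reached an FPKM of 5 in A549 2D and were under 0.1 in every H460 2D library, 91 stayed at 1 or more in A549 TS, and 1 reached 1 in H460 TS. Of 54 genes with the reverse pattern, the median FPKM in A549 TS was 0.0230, and 9 reached 1. Mitochondrial transcripts took 8.79% of the 2D reads and 10.4% of the TS reads. The epithelial keratins KRT8 and KRT18 were abundant in both libraries, while surfactant protein genes SFTPB and SFTPC had no read in either, so alveolar identity was not seen at the RNA level.

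In either A549 library, 12606 genes reached an FPKM of 1. Of these, 845 (6.7%) exceeded their 2D level by more than 2-fold in TS cells and 381 (3.02%) fell short of it by more than 2-fold, and 7124 were lower by any amount, with a median difference of -0.07. More than 4-fold apart were 211 higher and 50 lower genes, and more than 8-fold apart were 80 higher and 7 lower genes. The higher genes started from low levels, with a median FPKM of 1.73 in 2D and 9.31 in TS, and 347 of them were under 1 in 2D. The lower genes had medians of 10.6 and 2.95, and 114 ended under 1. The spread between cultures of one kind could be seen only in H460 cells, where the 3 pairs of 2D libraries differed by over 2-fold in 2.92%, 4.56% and 6.57% of genes, or 349 to 789 genes. Those pairs had between 10 and 30 genes over 4-fold and at most 8 over 8-fold. Of the 1226 genes called in A549, 162 (13.2%) were also more than 2-fold apart between H460 2D libraries. Only 774 of the 1226 reached 1 FPKM in any H460 2D or TS library, and the others could not be that far apart there. The share over all genes for any of the 3 pairs is not given, so the 13.2% has no background beside it. At the line itself, EML2 (8.74 to 18.5) and MGAM (0.192 to 1.39) lay just inside it and NREP (2.05 to 5.10) and TMEM63C (0.218 to 1.43) just outside it among higher genes. Among lower genes, CSRP2 (11.5 to 5.24) and BUB1 (28.5 to 13.7) lay just inside, and ERCC6L (8.56 to 3.78) and ZNF462 (1.44 to 0.224) just outside.

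**Figure D1:**
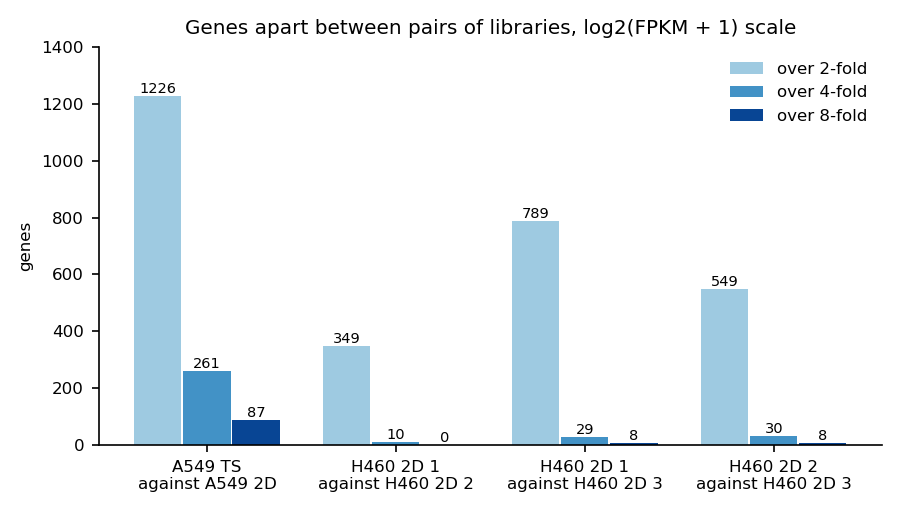
Bars give the number of genes more than 2-fold, 4-fold and 8-fold apart on the log2(FPKM + 1) scale, for A549 TS against A549 2D and for the 3 pairs of H460 2D libraries. The A549 pair has 261 genes over 4-fold, against 10 to 30 in the H460 pairs.

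The 15 largest differences, 5.13 to 7.45 on the log2 scale, were all higher in TS cells. CEACAM6, a cell surface adhesion molecule, had an FPKM of 3.67 in 2D and 814 in TS, a difference of 7.45. CST1, a secreted cysteine protease inhibitor, had 0.264 and 219. SERPINA1, which encodes alpha-1-antitrypsin, had 0.487 and 181. TSPAN8, a tetraspanin of epithelial membranes, had 0.0235 and 116, from counts of 2 and 10514 reads. The ratio of its levels was 4857, with a wide 95% counting interval of 1344 to 40115. FCGBP, a mucus protein, had 0.378 and 148, and LCN2, the iron-binding lipocalin, had 0.265 and 123. The airway mucin MUC5B had 0.259 and 92.1, the antichymotrypsin SERPINA3 had 0.570 and 89.6, and the water and glycerol channel AQP3 had 1.28 and 102. The imprinted long non-coding RNA H19 had 5.34 and 279, and its neighbor IGF2 had 0.587 and 25.4, the latter named after its values were seen. FN1, the matrix protein fibronectin, had 30.9 and 1136, but it ranged from 171 to 911 between the H460 2D libraries, 2.41 apart on the log2 scale. RARRES1, a retinoid-induced gene, had 0.501 and 51.4.

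Some genes had no read in 2D and many in TS. TCN1, a vitamin B12 carrier, LYZ, the enzyme lysozyme, and ADH1C, an alcohol dehydrogenase, had a count of 0 in 2D and FPKM of 37.8, 37.7 and 36.4 in TS. Against a floor of 3 reads in the 2D library, they were at least 1407-fold, 1408-fold and 1323-fold higher. In all, 18 genes went from under 0.1 to at least 5 FPKM, of which 12 had no read in 2D and 13 were under 0.1 in every H460 2D library and in H460 TS. Beside those already named, they were KRT20, BPIFB1, CST4, PI3, ST6GALNAC1, SLC6A14, REG4, GDA, LGR6, LEFTY1, F5, BPIFA1, TFF3 and ADH6. Only MARCHF4, a ubiquitin ligase gene, made the reverse passage among the genes examined, from 5.18 to 0.00805. Pairs of H460 2D libraries showed 1 or 2 such passages in either direction. In bulk RNA, a new cell type and more RNA per cell cannot be told apart, and the same holds for fewer cells of a type and less RNA per cell.

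**Figure D2:**
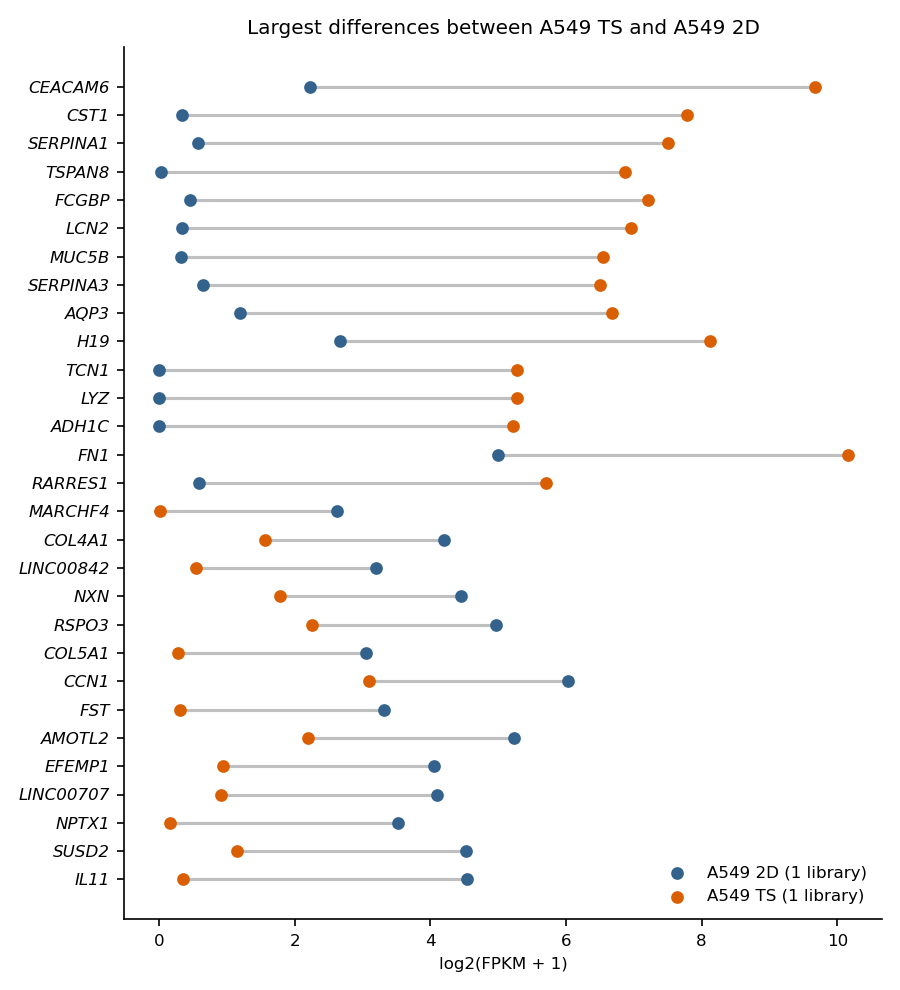
Each row is a gene, and points give its log2(FPKM + 1) in the single A549 2D library and the single A549 TS library. The upper 15 of the named genes are higher in TS, by 5.13 for RARRES1 to 7.45 for CEACAM6, and the lower genes have differences of -2.62 for MARCHF4 to -4.18 for IL11.

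The genes furthest below their 2D level were IL11, a cytokine induced by TGF-beta, from 22.2 to 0.284, and SUSD2, a membrane protein, from 22.0 to 1.21. NPTX1, a secreted pentraxin, went from 10.5 to 0.115. EFEMP1, the matrix protein fibulin-3, went from 15.5 to 0.928, and it was also lower in H460 TS, at 73.3 against 306 ± 133 (SD, n = 3) in 2D. AMOTL2, a junctional protein and a target of YAP, went from 36.7 to 3.58, and CCN1, another such target, from 64.4 to 7.56. FST, an activin antagonist, went from 8.99 to 0.238. Collagen genes COL5A1 (7.30 to 0.216) and COL4A1 (17.4 to 1.95), the WNT agonist RSPO3 (30.3 to 3.78) and the redox protein NXN (20.8 to 2.46) were among the rest. 2 long non-coding RNAs, LINC00707 (16.2 to 0.884) and LINC00842 (8.15 to 0.454), also stood there.

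The most abundant transcripts changed little. The 10 highest in 2D and the 10 highest in TS were the same 10, namely mitochondrial COX1, COX2, COX3, ATP6, ATP8, ND4, ND4L and RNR2 with GAPDH and FTL. Their differences lay between -0.20 for FTL, the ferritin light chain, and 0.43 for COX1.

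Genes of mucus-secreting epithelium were higher as a group. Of 24 mucin and secretory airway genes, 13 were more than 2-fold higher, 1 was within 2-fold and 10 were under 1 FPKM in both libraries. The median difference was 2.54 over all 24 and 3.65 over the 14 that reached 1 FPKM, of which 10 reached it only in TS and so had to be higher. Over all 12606 genes the median was -0.07, and 6.7% were called higher and 3.02% lower. These shares are the background for the list counts below, where only members at 1 FPKM in either library could be called. AGR2, an endoplasmic reticulum protein needed for mucin folding, had 62.0 and 1322, and its neighbor AGR3 had no read in 2D and 4.05 in TS. The gel-forming mucin MUC5AC had 24.1 and 173, beside its neighbor MUC5B. The trefoil factors TFF1 and TFF3, which protect mucosa, had 0.699 and 52.0, and 0 and 5.71. CEACAM5 had 0.173 and 17.9, the membrane mucin MUC13 had 1.36 and 31.3, and the airway defense proteins BPIFB1 and BPIFA1 had 0 in 2D and 26.2 and 5.78 in TS. SPDEF, the transcription factor of goblet cells, had 0.831 and 13.7, and CREB3L1, a factor of secretory cells, had 0.238 and 13.3. CEACAM5 and CEACAM6, like CST1 and CST4, are close paralogs, and reads they share could be split wrongly. MUC2, MUC6, SCGB1A1 and TFF2 stayed under 1 FPKM in both, so the club cell and gastric gland members were not seen. Of these genes only MUC1 and AGR2 reached 1 FPKM in any H460 library, so the others could not be called in H460 TS.

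Transcription factors of endodermal organs differed less. Of 22, 7 were more than 2-fold higher, none was more than 2-fold lower, and the median was 0.31 over all 22. Of the 17 that reached 1 FPKM, 5 did so only in TS and had to be higher. EHF, an epithelial ETS factor, had 0.202 and 7.59, and FOXA1, a pioneer factor of airway and gut, had 2.27 and 14.7. ELF3 (30.9 to 72.2), KLF5 (13.4 to 29.7) and GATA6 (1.09 to 3.47) were higher as well, and FOXA2 went the other way, from 13.1 to 6.37, within 2-fold on this scale.

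The liver secretes plasma proteins, some of which rise in inflammation. Of 30 acute-phase and liver plasma protein genes, 15 were more than 2-fold higher, none was lower by that much, and 13 were under 1 FPKM in both libraries. The median was 0.95 over all 30 and 1.67 over the 17 that reached 1, of which 10 reached it only in TS. Ceruloplasmin (CP), a copper carrier, had 9.64 and 157, and complement factor B (CFB) had 0.294 and 8.33. The 3 fibrinogen chain genes, which lie side by side on chromosome 4, were all higher: FGA had 12.1 and 40.7, FGB had 9.14 and 23.4, and FGG had 10.6 and 24.9. The complement gene C3 had 18.8 and 44.0, and APOH had 3.07 and 35.4. Albumin (ALB), CRP and APOA1 stayed under 1 FPKM. In H460 TS, CP, SERPINA3, FGA, C3 and FGG were more than 2-fold higher too, and the other 12 of the 17 were not.

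Interferon-stimulated genes were higher together. They are transcribed when the factor complex ISGF3, which contains STAT2 and IRF9, binds a short element in their promoters, and their products restrict viruses. Of 29, 18 were more than 2-fold higher, none was lower, and 4 were under 1 FPKM in both libraries. The median was 1.61 over all 29 and 1.32 over the 14 at 1 FPKM in both libraries, while 11 reached 1 FPKM only in TS and so had to be higher. IFI6, a mitochondrial protein, had 3.38 and 81.7, and IFITM1, which blocks viral entry, had 0.846 and 28.9. IFI27 had 0.375 and 19.1, the ubiquitin-like ISG15 had 3.55 and 31.0, and MX1 had 0.106 and 4.82. The antiviral enzyme OAS1 had 15.8 and 48.2, while OAS3 had 17.7 and 21.7. Of the factors, IRF9 had 3.90 and 16.7, IRF7 had 1.23 and 7.75, and STAT2 had 3.87 and 9.31. XAF1, RSAD2, MX2 and IFI44L stayed under 1 FPKM, at 0.536, 0.326, 0.301 and 0.226 in TS. In H460 TS the median difference of the 25 genes was -0.05 and none was called. The cause of the A549 difference was not tested.

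The element bound by ISGF3 can be read in many of these promoters. A core of the interferon-stimulated response element, GAAANNGAA on either strand, was searched in the 250 bases before each start listed in RefSeq (GRCh38.p14). It was found before 15 of the 21 listed genes that have an entry (71.4%), against 8.41% of all 27305 genes of the table and 10.1% of the 614 called higher in TS. The stretches of the 2 members with the largest differences that hold it are shown with the core in capitals, from chr1:27672247-27672315 (minus strand) for IFI6 and chr11:313970-314038 (plus strand) for IFITM1.
IFI6: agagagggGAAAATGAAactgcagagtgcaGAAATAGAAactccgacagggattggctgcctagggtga
IFITM1: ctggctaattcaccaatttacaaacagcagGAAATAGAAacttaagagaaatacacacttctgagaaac
The core nearest to the start ends 85 bases before it in IFI6 and 32 bases before it in IFITM1. A match of letters describes the sequence and does not show binding.

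Cytokines of the NF-kappaB list went both ways, with 7 more than 2-fold higher and 3 lower of 29. The chemokines CCL5 (0.226 to 8.66), CXCL8 (4.42 to 29.1), CCL20 (0.725 to 7.65) and CXCL1 (11.5 to 57.5) were higher. IL11, IL6 (2.31 to 0.122) and CSF1 (22.8 to 6.85) were lower. The NF-kappaB genes NFKB2 (34.5 to 17.1) and NFKBIA (40.4 to 22.3) were lower within 2-fold.

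Keratins differed in both directions. Of 17 keratins on the list, all 11 that reached 1 FPKM were more than 2-fold apart, 7 higher and 4 lower. The run of lower genes given below also holds keratins that are not on the list. Keratins form the filaments of epithelial cells, and their type 2 genes lie in 1 cluster on chromosome 12 together with KRT18, a type 1 gene. KRT8 went from 1446 to 3866 and KRT18, its partner, from 1341 to 3229. KRT7, the keratin of simple ducts, went from 1221 to 372, and the hair keratin KRT81 from 1246 to 499. KRT19 had 3.57 and 68.3, KRT15 had 1.29 and 18.0, KRT4 had 3.82 and 35.1, and KRT20, a keratin of gut epithelium, had 0 and 31.4. KRT80 had 25.9 and 4.26. KRT80, KRT7, KRT87P, KRT86, KRT81, KRT83 and KRT85, the longest run of lower genes, lie between positions 52168996 and 52367481 of chromosome 12, and KRT4, KRT8 and KRT18 lie between 52806549 and 52952906 and were higher. The hair keratin genes are close in sequence, and how reads shared between them were divided is not given in the sources used here.

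**Figure D3:**
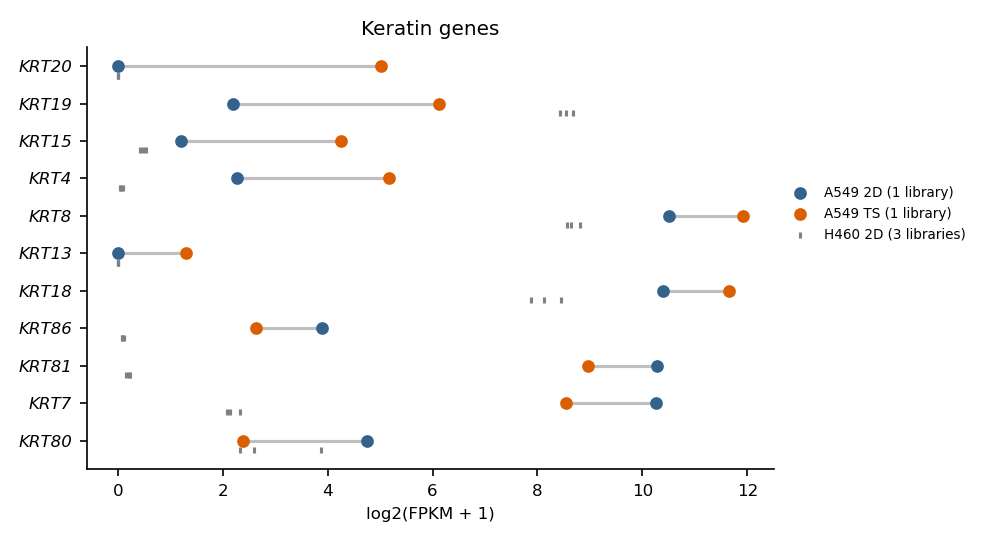
Points give log2(FPKM + 1) in A549 2D and A549 TS of the 11 genes of the keratin list that reached an FPKM of 1 in either. Ticks give the 3 H460 2D libraries. The upper 7 genes are higher in TS and the lower 4 are lower, by more than 1 in each case.

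Called genes also stood next to each other elsewhere. Of 843 higher genes with a position, 256 lay within 100 kb of another higher gene, in 113 runs, and of 381 lower genes 72 did, in 29 runs. Neighboring genes often share ancestry and reads, so these counts are given with no expectation. The longest higher run, on chromosome 17, held HOXB2 (0.676 to 4.28), HOXB3 (2.23 to 5.96), HOXB5 (1.21 to 9.32), HOXB6 (3.24 to 17.7) and HOXB8 (4.49 to 18.1), homeobox genes of body axis identity, with PRR15L, COPZ2 and SKAP1. The cystatin genes CST1, CST2 (0.113 to 8.77), CST3 (135 to 402) and CST4 (0 to 14.5) formed another on chromosome 20. UGT1A1, UGT1A3, UGT1A6 and UGT1A7, which conjugate bilirubin and drugs, share their last exons, so their levels are not independent of each other. No whole chromosome stood far from the rest, with medians between -0.20 for chromosome 18 and 0.00 for chromosome 8 over genes at 1 FPKM or more in both libraries.

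Genes that build contacts between cells and with the basement membrane changed by member. Of 31 epithelial junction genes, 8 were more than 2-fold higher and none was lower by that much, but 11 were under 1 FPKM in both, and the median was 0.14 over all 31. CLDN2, a claudin that forms pores, had 10.5 and 178, the desmosome proteins JUP and DSP had 54.7 and 153, and 9.72 and 21.0, and CLDN4 had 0.183 and 4.81. E-cadherin (CDH1) had 9.29 and 11.9, and CLDN1 had 52.4 and 27.4. Of 15 integrins, 4 were higher and 1 lower. ITGB4 and ITGA6, which pair to form the laminin receptor of hemidesmosomes, had 8.41 and 63.2, and 18.8 and 65.6. ITGB3, of the vitronectin receptor, had 5.63 and 0.653. The list of 16 mesenchymal genes held 2 higher and 4 lower calls. N-cadherin (CDH2) had 13.6 and 5.05, the factor SNAI1 had 5.67 and 0.617, and the kinase AXL had 75.8 and 18.3. S100A4 had 236 and 741, and vimentin (VIM) had 597 and 519.

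Matrix genes differed in both directions. Of 24 collagen genes, 5 were more than 2-fold higher, 6 were lower and 8 were under 1 FPKM in both. Collagen 4 of the basement membrane went both ways by gene pair, and COL4A1 (17.4 to 1.95) and COL4A2 (35.0 to 6.99) were lower and COL4A5 (5.35 to 25.7) and COL4A6 (8.41 to 36.4) were higher. Each pair shares a divergent promoter region. COL5A2 had 29.1 and 99.3, against 7.30 and 0.216 for COL5A1. Among laminins, LAMB3 had 1.91 and 20.4 while LAMA3, its partner in laminin-332, had 8.84 and 0.809. IGFBP3, an insulin-like growth factor binding protein, had 144 and 1226, and it was also higher in H460 TS, at 1092 against 79.9 to 480 in 2D.

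YAP/TEAD and TGF-beta targets held members in both directions. Of 22 YAP/TEAD target genes, all at 1 FPKM in either library, 10 were more than 2-fold lower and 2 higher, with a median of -0.83. Of the 12606 genes at that level, 3.02% were called lower. Beside AMOTL2 and CCN1, NUAK2 had 21.6 and 3.18, AJUBA had 33.0 and 7.51, TGFB2 had 14.95 and 3.98 and CRIM1 had 99.1 and 34.2. CCN2, another much used readout of YAP, had 21.9 and 25.9, and the 2 higher members were IGFBP3 and NT5E (8.49 to 42.5). In H460 TS, 6 of the 22 were more than 2-fold lower and 1 was more than 2-fold higher. A TEAD motif, GGAATG on either strand, was present before 8 of the 16 members with a listed promoter (50%), against 14.3% of all genes and 18.2% of the 264 genes called lower. The stretches below, from chr3:134374481-134374546 for AMOTL2 and chr1:205321746-205321793 for NUAK2, both on the minus strand, belong to the 2 members furthest below 2D that hold it, in capitals.
AMOTL2: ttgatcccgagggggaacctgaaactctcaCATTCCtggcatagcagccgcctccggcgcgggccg
NUAK2: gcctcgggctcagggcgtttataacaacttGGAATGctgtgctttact
Of 21 actin cytoskeleton genes, 5 were more than 2-fold lower and 1 was higher, with a median of -0.50 over all 21. The tropomyosin TPM1 had 328 and 96.1, the filamin FLNA had 356 and 147, and the actins ACTB and ACTG1 had 3060 and 1805, and 3191 and 1955. Of 20 TGF-beta-induced genes, 7 were more than 2-fold lower, 11 were within 2-fold and FN1 alone was higher. Their median was -0.41 over all 20, but -0.018 over the 15 at 1 FPKM in both libraries, since 4 reached 1 FPKM only in 2D and had to be lower. TGFBI had 300.5 and 69.8, and SMAD7, a feedback inhibitor of the pathway, had 7.02 and 1.49. TGFB1 itself had 33.2 and 35.0.

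Genes of DNA replication and mitosis were lower, most of them by less than 2-fold. All 32 DNA replication genes and all 25 mitosis genes were lower in TS, with medians of -0.69 and -0.85, while 2 and 6 of them passed the 2-fold line, and every member of both lists was also lower with upper-quartile, quantile or TMM scaling. The replication clamp PCNA had 246 and 165 and the helicase subunit MCM2 had 41.2 and 19.0. The topoisomerase TOP2A had 123 and 58.99, the proliferation marker MKI67 had 33.2 and 16.0, and CDC20, the activator of the anaphase-promoting complex, had 111 and 40.6. Among the inhibitors of cyclin-dependent kinases, CDKN2C (4.58 to 10.9) was more than 2-fold higher, while CDKN1B (6.34 to 11.3) and CDKN1A (46.6 to 39.2) were within 2-fold. MYC had 33.9 and 15.9. In H460 TS the medians of the same lists were -0.03 and -0.17, and no member was called. Summed over the mitosis list, FPKM was 1140 in A549 2D and 611 in A549 TS, against 834 to 1279 in H460 2D and 981 in H460 TS. A CHR element, TTTGAA on either strand, was before 12 of the 21 mitosis genes with a listed promoter (57.1%), against 16.1% of all genes. A CCAAT box was before 17 of the 21 (81%), against 37% of all genes. Among the 264 genes called lower, the shares were 12.5% for CHR and 39% for CCAAT. The CCAAT box was also before 13 of 15 cholesterol synthesis genes (86.7%), a list that was higher in TS. CDC20 (chr1:43358886-43358951, plus strand) and TOP2A (chr17:40418012-40418077, minus strand) are the 2 members furthest below 2D that hold the CHR letters, shown in capitals.
CDC20: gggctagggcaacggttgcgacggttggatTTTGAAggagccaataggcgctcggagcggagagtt
TOP2A: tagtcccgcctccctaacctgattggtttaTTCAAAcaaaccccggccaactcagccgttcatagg
The 24 targets of p53, which is intact in A549 cells, were near level, with a median of -0.12, none called higher and GDF15 (58.6 to 28.3) alone called lower. Between H460 2D libraries, GDF15 ran from 13.8 to 34.1.

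ATF4 is the transcription factor that cells activate when amino acids run short. Of 24 ATF4 targets, 7 were more than 2-fold lower, 1 was higher and 15 were within 2-fold, with a median of -0.69 over all 24. The serine synthesis enzymes PHGDH (32.6 to 9.08) and PSAT1 (96.6 to 29.0), the asparagine synthetase ASNS (43.6 to 12.4) and the transporter SLC7A5 (630 to 195) were lower, while the cystine transporter SLC7A11 had 26.1 and 28.6. DDIT4, an inhibitor of mTORC1, had 84.6 and 253. Between H460 2D libraries, DDIT4 ran from 220 to 518 and SLC7A5 from 47.9 to 128, both more than 2-fold apart. In H460 TS the list had a median of 0.25, with 1 member more than 2-fold higher and none more than 2-fold lower. Chaperone genes of the endoplasmic reticulum were higher in 14 of 15, with a median of 0.68. XBP1, the factor that enlarges secretory capacity, had 22.4 and 73.7 and CRELD2 had 12.6 and 28.9, and they alone passed 2-fold. Lysosomal genes were higher in 21 of 24, 5 of them more than 2-fold, with cathepsin D (CTSD) at 131 and 485.

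Cholesterol synthesis was higher in every gene of the list. Serum carries cholesterol in lipoproteins, and cells without it activate the factor SREBP2. All 20 enzymes were higher in TS and 11 were more than 2-fold higher, with a median of 1.03. HMGCS1, an early enzyme of the pathway, had 37.1 and 87.6, and SQLE, which oxidizes squalene, had 26.5 and 72.0. INSIG1, which holds the SREBP complex in the endoplasmic reticulum, had 11.6 and 38.0. H460 TS had a larger median, 1.84, with 19 of 20 called. A core of the sterol element, TCACNCCAC on either strand, was before none of the 15 enzymes with a listed promoter and before 1.09% of all genes, so these letters are not in this window. Fatty acid synthesis showed less, with 3 of 20 higher, among them SCD (162 to 370) and FADS2 (112 to 331), while FASN had 55.9 and 53.5. The sterol exporter ABCA1 had 4.26 and 0.520, while the median over the 8 sterol efflux genes was 0.16.

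Ion and water transport, retinoid and detoxification genes each held a few large differences. Of 20 aquaporin and ion transport genes, 6 were higher and none was lower, with the chloride importer SLC12A2 at 7.58 and 97.0 and the sodium pump subunit ATP1B1 at 86.1 and 249. Of 16 retinoid-responsive genes, 6 were higher, among them CYP26B1, which degrades retinoic acid (2.66 to 35.1), and STRA6, the retinol transporter (5.89 to 25.4). Among 28 NRF2 targets, GPX2 (44.8 to 1045), CES1 (0.738 to 24.1), ALDH3A1 (308 to 1944), AKR1C1 (35.8 to 106), AKR1B10 (1455 to 3731) and ABCC3 (54.3 to 122) were higher. The classical targets NQO1 (483 to 727) and GCLM (27.2 to 17.8) were within 2-fold, and HMOX1 had 71.1 and 11.3. A549 cells carry a KEAP1 mutation that keeps NRF2 active, and the summed FPKM of the list was 15744 in 2D and 19588 in TS. The iron exporter SLC40A1 had 2.07 and 27.8. AKR1C genes are near-identical, and their split is uncertain.

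Hypoxia and glycolysis genes went both ways. Of 32, 6 were more than 2-fold higher and 2 lower. The carbonic anhydrase CA9 had 1.495 and 19.7, the aldolase ALDOC had 3.03 and 26.5 and the oxygen sensor EGLN3 had 2.79 and 22.6. The 2 lower genes were the glycolysis genes PFKP (267 to 118) and PFKFB3 (69.9 to 32.4). VEGFA (12.9 to 9.88) and ADM (64.1 to 32.9) were lower within 2-fold. Growth factor feedback genes were mixed as well, with 3 higher and 7 lower of 24. DUSP6 (7.73 to 22.5) and ETV4 (16.6 to 36.1) were higher, while FOSL1 (46.3 to 9.18), DUSP1 (145 to 34.7), EREG (33.1 to 9.74) and AREG (42.5 to 14.5) were lower. DUSP6, FOSL1 and DUSP1 were also more than 2-fold apart between H460 2D libraries, by 1.97, 1.445 and 1.49 on the log2 scale. The immediate-early genes FOS (65.7 to 75.8) and JUN (17.4 to 18.8), which rise when cells are handled, were level. EGR1, another such gene, was lower within 2-fold (18.1 to 11.1). Between H460 2D libraries, FOS, JUN and EGR1 were up to 6.06, 3.13 and 5.39 apart on the log2 scale. Whether the A549 cultures were handled alike was not tested. Of 22 stem cell markers, 3 were higher, SOX9 (5.05 to 19.6), ITGA6 and NES (0.540 to 2.22), and 2 were lower. Only 15 of the 22 reached 1 FPKM, and NES did so only in TS. ALDH1A1 had 1529 and 1556, CD44 had 86.9 and 135, and PROM1, LGR5 and NANOG stayed under 1 FPKM.

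**Figure D4:**
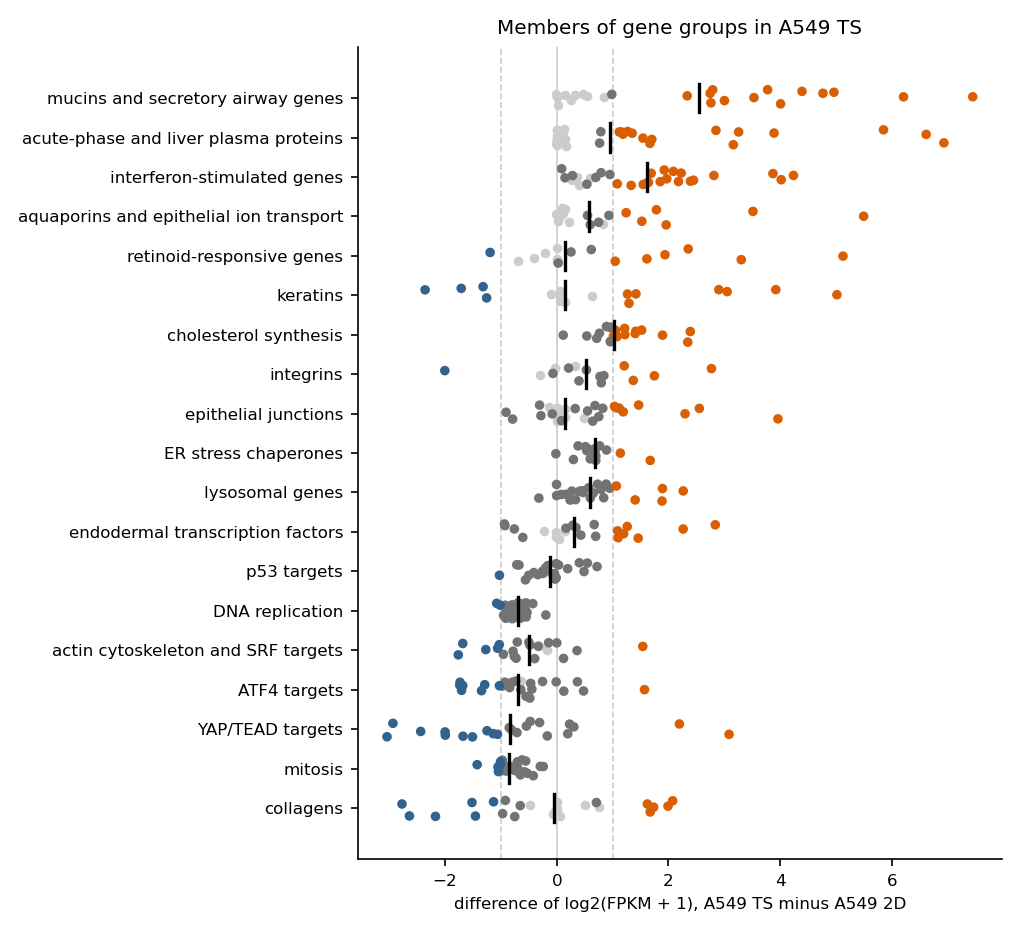
Each point is a gene of a list, placed by its difference of log2(FPKM + 1) between A549 TS and A549 2D. Orange is more than 2-fold higher, blue more than 2-fold lower, dark gray within 2-fold and light gray under an FPKM of 1 in both, and the bar is the median over all members, 2.54 for mucins and -0.85 for mitosis.

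The remaining lists are given by their counts over all members. The shares beside them, 6.7% higher and 3.02% lower, are over the 12606 genes at 1 FPKM in either A549 library. Members under 1 FPKM in both libraries could not be called. Only 2 of 15 alveolar, 7 of 15 WNT and 21 of 30 matrix glycoprotein genes reached 1 FPKM. Higher and lower counts were 5 and 1 of 14 for sterol uptake and sensing, 1 and 2 of 8 for sterol efflux, 3 and 0 of 20 for fatty acid oxidation, 1 and 0 of 23 for G1 regulators, 2 and 2 of 11 for laminins and 3 and 6 of 30 for matrix glycoproteins. They were 4 and 1 of 17 for glucocorticoid-induced genes, 2 and 1 of 18 for selenoproteins, 1 and 1 of 15 for iron handling, 3 and 0 of 20 for Notch, 2 and 0 of 15 for WNT and 1 and 1 of 15 for alveolar genes. Among 10 genes of handling stress, FOSB (7.73 to 0.845) alone was called. Of the genes the study names for TS cells, STC1 (3.27 to 22.6), CHPF (10.1 to 34.3) and SEZ6L2 (7.34 to 18.3) were more than 2-fold higher and the other 5 were within 2-fold; they were chosen on these samples, so this count is not independent evidence. Of the 6 epithelial markers, 3 were higher and 1 lower, all of them keratins. Markers of other cell types were mostly near 0. All 5 endothelial markers and 5 of 7 fibroblast markers were under 1 FPKM in both libraries, and the summed endothelial level went from 0.0336 to 0.400. Of 7 immune markers, PTPRC, CD3E, CD79A and TYROBP were under 1, and LYZ, CD68 (19.6 to 69.8) and CD14 (2.37 to 10.1), which epithelial cells can express as well, were higher.

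The H460 pair of cultures offers the only other TS library. Compared with the mean of 3 H460 2D libraries, H460 TS had 239 genes (1.93%) higher and 244 (1.97%) lower of 12414. A mean of 3 libraries is unlike the single A549 2D library, so these counts and the A549 counts follow unlike rules. Against each H460 2D library alone, H460 TS had 538, 697 and 875 genes over 2-fold apart (4.52%, 5.76% and 7.22%). The single A549 pair had 1226 (9.73%). The A549 and H460 comparisons share no library. Higher in both were 73 genes, 8.64% of the A549 list and 30.5% of the H460 list, and lower in both were 42, which were 11% and 17.2%. Of the genes called higher in A549, 345 (40.8%) were under 1 FPKM in all 4 H460 libraries and could not be called there. Across 11335 genes expressed in both lines, which are not independent, Pearson's r of the differences was 0.14 and Spearman's rho 0.01. AQP3 led the shared genes, at 70.7 in H460 TS against 0.324 ± 0.126 (SD, n = 3) in 2D. TC2N had 0.145 and 11.3 in A549 and 25.1 in H460 TS against 0.0381 ± 0.0199 (SD, n = 3). CP, STC1, HGD (8.93 to 51.3 in A549), PI3 and HYAL1 (1.11 to 9.99) were also among the 10 most shared, and the matrix genes IGFBP7 (17.4 to 2.11) and OLFML3 (6.16 to 0.168) were lower in both.

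Opposite directions were seen for 41 genes, 31 of them higher in A549 TS and lower in H460 TS. KRT19 had 3.57 and 68.3 in A549, and in H460 374 ± 32.2 (SD, n = 3) in 2D and 138 in TS. The lectin LGALS3 had 16.1 and 90.4 in A549, and 501 ± 93.6 (SD, n = 3) and 109 in H460. The surface enzyme NT5E (8.49 to 42.5), the collagen COL3A1 (1.95 to 8.42), SYBU (1.63 to 13.4), the actin-capping CAPG (10.6 to 46.6) and the semaphorin receptor PLXNA2 (0.155 to 4.84) were higher in A549 TS, and the protease ADAM19 (3.37 to 0.679) was lower.

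**Figure D5:**
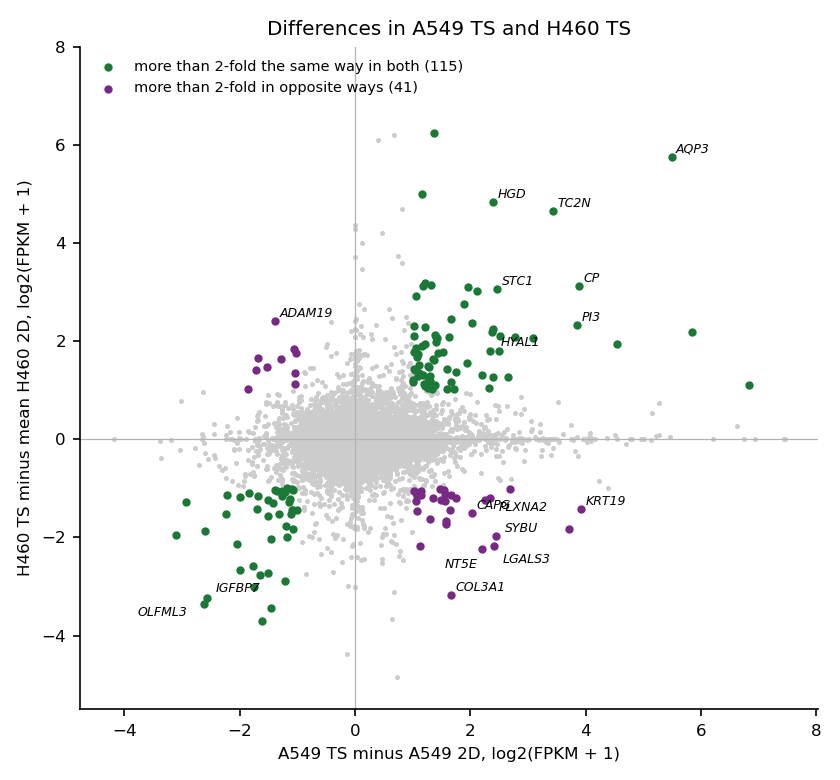
Each point is a gene, with its difference in A549 (TS minus 2D) on the x axis and in H460 (TS minus the mean of 3 2D libraries) on the y axis, both of log2(FPKM + 1). Green points, 115 genes, differ more than 2-fold the same way in both lines and purple points, 41 genes, in opposite ways, and most A549 differences above 5 lie near the H460 zero line.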

How the data were processed

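Poly(A) RNA of A549 cells in 2D and TS culture was sequenced by the authors on an Illumina HiSeq. The submitters' processing notes name bcl2fastq 1.8.4, Trimmomatic, HISAT2 2.1.0, StringTie 2.1.3b and GRCh38. The authors deposited, for 46427 genes, a read count per gene without normalization, an FPKM (normalized for transcript length and library size) and a TPM made from the same reads. Counts of 1 were rarer than counts of 2 (729 and 1021 genes in A549 2D), so a count may not be 1 independent read, and intervals, which cover counting error only, may be too narrow.

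Differences were taken on log2(FPKM + 1), after the study's fold cut-off of 2, with no test, since each culture had 1 library. Ratios have exact binomial (Clopper-Pearson) 95% intervals from the counts, and a count of 0 was replaced by a floor of 3 reads. Named genes were the 15 largest rises and falls, the 10 most abundant, members of 45 lists (819 genes, all found in the table), the 10 most shared and 10 most opposite between A549 and H460, and 2 genes on each side of the 2-fold line. Genes in runs of at least 4 neighbors and IGF2 were named after their values were seen. Members and lists were chosen with earlier results of these data known. The counting rule was tested on simulated data. Alternatives were other pseudocounts, filters, scalings, TPM, TMM-scaled counts and each H460 2D library left out. Python 3.11.15, numpy 2.4.6, pandas 2.3.3, scipy 1.17.1 and matplotlib 3.10.9 were used. Results of some genes that these rules name are not reported here. Promoters and positions are from RefSeq, GRCh38.p14.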

Additional observations from a re-analysis of the deposited data

Results flagged for a closer look

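A549 TS and H460 TS differed in opposite directions from their 2D cultures by more than 2-fold in 41 genes, and 8 of the 10 with the largest summed size are given. The difference between the lines was not tested, since A549 has 1 library per culture. The log2 differences in A549 TS were 3.92 for KRT19, 1.67 for COL3A1, 2.42 for LGALS3, 2.20 for NT5E, 2.45 for SYBU, 2.04 for CAPG and 2.34 for PLXNA2, and ADAM19 had -1.38. In H460 TS they were -1.43, -3.18, -2.17, -2.24, -1.98, -1.51 and -1.20 in the same order, and 2.42 for ADAM19.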

How the results depend on the processing

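No paired analysis was possible because each A549 culture has 1 library. The counts of 845 higher and 381 lower genes became 353 and 130 with a pseudocount of 5, 1284 and 618 with TMM-scaled counts, and 211 and 50 at a threshold of 4-fold. The TMM-scaled counts took a prior count of 1 in place of 1 FPKM, so offset and scaling changed together. The TMM factor of TS over 2D was 0.967. The higher count was 498 for genes at 1 FPKM or more in both libraries, and the lower count was 665 with a pseudocount of 0.1. Leaving out genes over 2-fold apart between H460 2D libraries, an alternative chosen after seeing the data, gave 744 and 320. Of the 1226 called genes, 483 were called with a pseudocount of 5 and 1216 with TMM-scaled counts.

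The share of higher among called genes was 68.9%, and between 64% and 76.3% under the other scalings and pseudocounts. The median over all genes moved from -0.07 to 0.01 with upper-quartile scaling. No list median changed direction among those over 2-fold. With pseudocounts of 0.1 and 5, the medians were 5.62 and 2.33 for mucins, 3.67 and 1.04 for acute-phase genes, 2.56 and 0.83 for interferon-stimulated genes and 0.98 and 0.37 for epithelial junctions, and it was -0.55 for YAP/TEAD targets with 5. With all members found they were 2.54, 0.95 and 0.14 for mucins, acute-phase genes and junctions. With TMM-scaled counts and their prior count of 1 they were 6.42, 4.09, 2.67 and 1.07 for mucins, acute-phase, interferon-stimulated and junction genes. Upper-quartile scaling gave 3.65, 1.66 and 0.79 for mucins, acute-phase genes and junctions, and quantile normalization gave 3.62 and 1.66 for the first 2.

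The 115 genes with the same direction in both lines were between 112 and 123 without 1 H460 2D library, and 200 with a pseudocount of 0.1. The 41 genes in opposite directions were between 37 and 59, 23 where H460 TS was required to differ 2-fold from every 2D library, and 85 at a pseudocount of 0.1.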
